A study of Mus musculus with 36 samples.

Results

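HPC-1, progenitor cells of the bone marrow (BM) just downstream of hematopoietic stem cells, were compared by RNA sequencing between PBS-infused *Apoe*-/-*Il27ra*-/- mice and PBS-infused *Apoe*-/-*Il27ra*+/- mice. The labels of cell type, agent and genotype chose 6 of the 36 libraries of the series, 3 libraries of each genotype. The study asked what the receptor for the cytokine IL-27 does in a mouse model of abdominal aortic aneurysm driven by angiotensin II (Ang II). It sequenced LT-HSC and HPC-1 from mice infused with PBS or Ang II, and the PBS-infused mice served as its control for Ang II. Every mouse lacked functional *Apoe* alleles, ate a Western diet for 12 weeks from 8 weeks of age, and carried an osmotic pump for the last 2 weeks. The mice with the +/− genotype keep an intact *Il27ra* allele and are the reference here. A further 2 libraries of HPC-1 from PBS-infused *Apoe*-/- mice with both *Il27ra* alleles intact (+/+) are given beside them without a test. The cells, which the labels call short-term HSC, came through the gate Lin−Sca-1+c-Kit+CD150−CD48+, 5000 cells to a library. Sex is absent from the labels, and the study used male and female mice. The labels do not say whether libraries with different replicate numbers came from different mice, so each p value measures the spread between these samples, which may be partly technical.

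IL-27 pairs the subunits encoded by *Il27* and *Ebi3*. It binds a receptor made of IL-27RA and gp130, encoded by *Il6st*, and activates the kinases JAK1, JAK2 and TYK2 and the transcription factor STAT3. HPC-1 are cycling multipotent progenitors that already transcribe genes of several blood lineages, and IL-27 is known to act on stem and progenitor cells of the marrow.

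Replicate 3 of each genotype stood apart from the other 4 libraries in depth and in sex-linked transcripts. A chaperone gene, *Hsph1*, had the smallest p value of the comparison, and chaperones were grouped after such values were seen. *Hsph1*, which encodes an exchange factor for the chaperone Hsp70, was lower in the −/− libraries, at 122.0 ± 37.9 CPM (depth-normalized counts, mean ± SD of 3 libraries) against 256.1 ± 79.2 CPM in the +/− libraries, and *Bag3*, *Dnaja1*, *Hspa8* and *Stip1* were lower with it. *Cited2*, which encodes a transcriptional coregulator, and the class I gene *H2-Q6* were also lower, and *Kcng1* and *Slc9a8* were higher. None of these differences passed the adjustment over all 13199 genes tested. Between the replicate 3 libraries, *Hsph1*, *Bag3* and *Dnaja1* differed by only −0.20, −0.05 and −0.10 on the log2 scale. Fitted on the other 4 libraries, they differed by −1.43, −1.28 and −0.74. Of 38 other gene lists with 5 or more genes tested, which cover the IL-27 pathway, interferon responses, stem and lineage identity, the cell cycle and metabolism, 32 had a median within 0.15 of 0 on the log2 scale.

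The libraries differed in depth and in sex-linked transcripts before any comparison by genotype. The +/− libraries 1, 2 and 3 held 3358062, 3103196 and 4922800 counts, and the −/− libraries 1, 2 and 3 held 3175532, 3254832 and 4475778 counts. Replicate 3 of each genotype was therefore the deepest of its group, and with 3 or more counts it showed 16762 genes (+/−) and 17568 genes (−/−), against 12921 to 14021 genes in the other 4 libraries. These libraries also carried 18159 and 19874 counts of *Xist*, the RNA of the inactive X chromosome, and 0 counts of the Y-linked genes *Ddx3y*, *Eif2s3y*, *Kdm5d* and *Uty*. The other 4 libraries held 0 to 18 counts of *Xist* and 293 to 399 counts of *Ddx3y*. Across the 19 HPC-1 libraries, the 15 with Y-linked counts ranged from 2272026 to 3722262 total counts and the 4 without them from 4475778 to 6318379, so sex and depth cannot be told apart. Each genotype holds 1 such library. Total counts were 3635381 ± 728885 for −/− and 3794686 ± 985251 for +/− (exact two-sided permutation p = 0.7), and the top 100 genes took 21.1% ± 1.22 and 22.4% ± 2.61 of the counts (exact permutation p = 0.6). Genes detected gave an exact permutation p of 0.7. With 3 libraries against 3 the exact permutation test cannot go below 0.1, so it could show no difference at 0.05; the groups overlapped in each of these values. Across genes, which are not independent replicates, replicate 3 of the genotypes correlated at r = 0.98, and the other 14 pairs of libraries at 0.914 to 0.947. A count of 3, used as the limit of detection, stands for 0.61 to 0.97 CPM in these libraries, and this limit covers counting error only.

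**Figure D1:**
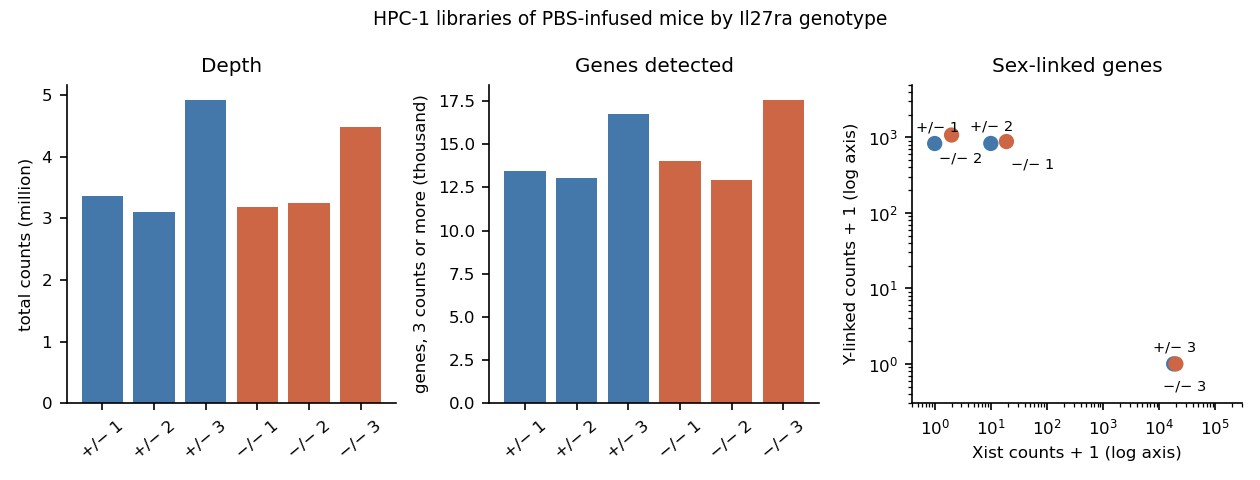
Total counts, genes with 3 or more counts, and counts of *Xist* against summed Y-linked counts (log axes, 1 added) in each of the 6 libraries, blue for +/− and orange for −/−. Replicate 3 of both genotypes is deepest, at 4922800 and 4475778 counts, and has *Xist* counts in place of Y-linked counts.

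The expression of sort markers followed the gate in the libraries of both genotypes. *Cd48*, the surface protein that defines HPC-1, ranged from 44.0 to 72.5 CPM over the 6 libraries and stood at 0.49, 0.63 and 1.21 CPM in LT-HSC of PBS-infused +/− mice. *Slamf1*, which encodes CD150, ranged from 1.65 to 4.68 CPM and stood at 31.6, 45.0 and 60.0 CPM in those LT-HSC. The ranges did not overlap for either gene, and in the +/− libraries the HPC-1 to LT-HSC difference was 6.01 on the log2 scale for *Cd48* (SE 1.19, edgeR adjusted p = 0.00389) and −3.70 for *Slamf1* (SE 0.793, edgeR adjusted p = 0.00545). In the fit over all 36 libraries, 18 of 22 HSC markers tested were lower in HPC-1 and 0 were higher; of 15 markers of multipotent progenitors, 9 were higher and 0 were lower (edgeR, adjusted p under 0.05, +/− libraries). *Ly6a*, which encodes Sca-1, was low in every library of both cell types, at 2.46 to 11.0 CPM in the 6 HPC-1 libraries and at 6.80, 21.9 and 16.6 CPM in those LT-HSC.

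*Il27ra*, the targeted gene, lies at chr8:84030294-84042589 on the minus strand (mm10, ENSMUSG00000005465). Its level was 14.9, 10.7 and 9.59 CPM in the +/− libraries and 6.50, 10.7 and 7.94 CPM in the −/− libraries, from 47, 34 and 49 counts and 21, 36 and 38 counts. The groups overlap, since −/− library 2 was as high as +/− library 2. The +/+ libraries, at 7.89 and 11.6 CPM, lay in the same range. The difference was −0.48 on the log2 scale (SE 0.487, 95% interval −1.53 to 0.57). It was −0.81 in HPC-1 of Ang II-infused mice (SE 0.428) and −1.48 in LT-HSC of PBS-infused mice (−1.22 without −/− library 2 of those cells), and the difference between HPC-1 and LT-HSC had an unadjusted p over 0.05. A count per gene pools all exons, those outside the altered part of the allele included, so these counts do not check the genotype labels. *Apoe*, inactivated in every mouse, stood at 1.48 to 6.81 CPM over the 6 libraries.

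Of the 20 genes of the IL-27 pathway, 17 had enough counts to be tested, and their median difference was −0.02, against −0.01 over all genes tested; 7 were positive and 10 negative. *Jak1*, the most abundant of them, was at 389.2, 399.9 and 292.7 CPM in +/− and at 378.6, 374.2 and 316.1 CPM in −/− (log2 difference −0.02, SE 0.171). *Il6st* was at 89.3, 88.1 and 138.0 CPM in +/− and at 125.4, 102.7 and 129.2 CPM in −/−. Both the receptor's partner chain and its kinase thus spanned the same range in the genotypes. *Stat3*, which carries the signal to the nucleus, differed by −0.10 (SE 0.202). *Socs3*, a feedback inhibitor that STAT3 induces, was the member furthest from 0, at 12.4, 11.3 and 11.9 CPM in +/− and 4.64, 2.37 and 7.53 CPM in −/−. Its groups did not overlap, the +/+ libraries stood at 12.8 and 23.2 CPM, and the difference of −1.27 had a wide error (SE 0.742).

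By edgeR, 0 of 13199 genes passed an adjusted p of 0.05 between the genotypes (0%), and the smallest adjusted p was 1. Unadjusted p values under 0.05 numbered 151 (1.14%), with 62 genes higher in −/− (0.47%) and 89 lower (0.674%). If no gene differed, a calibrated test would give a share near 0.05, so this fit was conservative. That no gene passed therefore does not show that the genotypes are alike. DESeq2 also passed 0 genes, with 192 at unadjusted p under 0.05, and limma-voom passed 0, with 346. With a Y-linked covariate DESeq2 passed 1, *Ighv1-55* (DESeq2 adjusted p = 0.00565), with 281 at unadjusted p under 0.05. The log2 difference of *Ighv1-55* in that fit, 26.68, is too large to be read as a fold change. The 151 depended on single libraries: without −/− library 2 or +/− library 1 it was 75 or 99, and without −/− library 3 or +/− library 3 it was 337 or 376. A fit of these 6 libraries alone gave 223 genes at an unadjusted p under 0.05 and 0 that passed; with replicate number as a block it gave 493 and 1 that passed, *Gm18853* (log2 difference −1.64, adjusted p = 0.0312). The −/− and +/− libraries did not overlap in 466 genes that were higher in −/− (3.53%) and in 435 that were lower (3.3%). The standard error had a median of 0.36 over all genes, and of 0.26 over the 7473 genes with a mean of 20 CPM or more; of these, 24 (0.321%) differed by more than 1 on the log2 scale.

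The genes described next are the 12 in each direction with the smallest unadjusted p whose +/− and −/− libraries did not overlap, so the ranking fixes their direction and the lack of overlap. *Hsph1* (chr5:149614287-149636376) was at 306.8, 296.7 and 164.9 CPM in the +/− libraries and at 78.3, 144.8 and 143.0 CPM in the −/− libraries, and at 167.7 and 231.5 CPM in +/+. +/− libraries 1 and 2 were high and −/− library 1 was low, while replicate 3 of the genotypes lay close together. Its difference was −1.07 (SE 0.284, 95% interval −1.68 to −0.45), with the smallest p of all genes tested. *Hsph1* passed when edgeR was run without a filter on low counts (log2 difference −1.06, adjusted p = 0.00725), and its adjusted p ranged from 0.00725 to 1 over the alternatives. *Cited2* (chr10:17723218-17725674), a coregulator that restrains hypoxia-inducible factors and is needed to maintain HSC, was at 90.9, 119.5 and 76.0 CPM in +/− and at 60.7, 61.1 and 64.8 CPM in −/−. The +/+ libraries, at 97.4 and 113.0 CPM, lay with the +/− libraries. The difference was −0.62 (SE 0.182, 95% interval −1.01 to −0.22). *Banp*, a nuclear partner of p53, was at 90.0, 110.4 and 59.9 CPM in +/− and at 36.8, 38.0 and 53.9 CPM in −/− (−1.01, SE 0.338). Of its +/+ libraries, library 1 lay below every −/− library, at 34.2 CPM, and library 2 within the +/− range, at 70.0 CPM. The remaining lower genes include *Aplp2*, a relative of the amyloid precursor protein (−0.54, SE 0.216), *Abcb6*, a porphyrin transporter (−1.25, SE 0.507), *Ppargc1b*, a coactivator of mitochondrial biogenesis (−0.68, SE 0.277), *Lman2l*, a cargo lectin of the secretory route (−0.72, SE 0.305), and *Zfp994*, *Eif1b* and *Nat9*.

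Among the genes higher in −/−, *Kcng1* (chr2:168260117-168281736), a modifier subunit of voltage-gated potassium channels, was at 24.2, 9.10 and 26.2 CPM in +/− and at 54.8, 42.7 and 33.2 CPM in −/−. The +/+ libraries, at 35.7 and 24.2 CPM, spanned the gap between the genotypes, and the difference was 1.12 (SE 0.37, 95% interval 0.32 to 1.92). *Slc9a8*, a sodium-proton exchanger of intracellular membranes, was at 29.6, 24.5 and 45.8 CPM in +/− and at 57.6, 59.9 and 48.3 CPM in −/− (0.72, SE 0.255). +/− library 3 came close to the lowest −/− library. *Tgif1*, a homeodomain repressor that dampens TGF-β and retinoid signals, was at 37.5, 27.0 and 36.8 CPM in +/− and at 61.9, 51.3 and 46.8 CPM in −/− (0.66, SE 0.268). *Tnfrsf13b*, a receptor for the cytokines BAFF and APRIL, was at 31.2, 28.5 and 36.4 CPM in +/− and at 58.8, 42.1 and 43.1 CPM in −/− (0.58, SE 0.246). *Cd33*, a sialic acid receptor of myeloid cells, was at 9.22, 4.71 and 10.4 CPM in +/− and at 27.2, 19.9 and 10.5 CPM in −/− (1.23, SE 0.535), and *Ada*, which deaminates adenosine, was higher mainly in −/− library 2, at 48.4 CPM against 18.6 and 15.7 CPM. In *Cd33* and *Ada* the replicate 3 libraries were nearly equal. The others were *Elac1*, which repairs tRNA ends (0.87, SE 0.317), *Osbpl3*, a sterol-binding protein (0.57, SE 0.236), *Mtif2*, an initiation factor of mitochondrial translation (0.48, SE 0.2), and *Ap4s1*, *Spata13* and *Vipas39*.

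**Figure D2:**
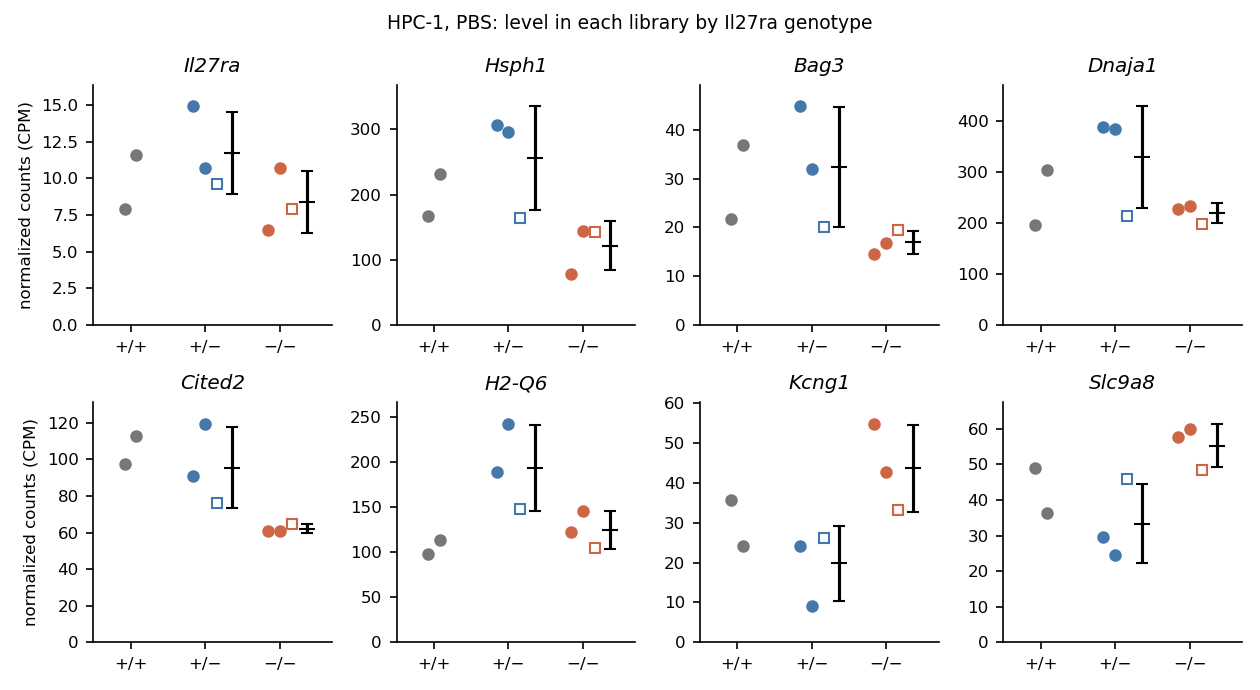
CPM in each HPC-1 library of PBS-infused mice for 8 genes, grey for +/+, blue for +/− and orange for −/−; open squares are replicate 3, without Y-linked counts, and black bars are mean ± SD of the 3 libraries of +/− and −/−. *Hsph1* is at 164.9 to 306.8 CPM in +/− and at 78.3 to 144.8 CPM in −/−, with its replicate 3 values, 164.9 and 143.0 CPM, close together.

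The ranked differences were also set against the libraries that stand apart. Of the 24 ranked genes, 23 (95.8%) showed a smaller difference between the replicate 3 libraries than between the libraries with Y-linked counts, with median sizes of 0.23 and 1.02 on the log2 scale; *Aplp2* was the exception (−0.77 in replicate 3, −0.41 in the others). The same held for 6739 of the 10632 genes with a mean of 5 CPM or more (63.4%), whose median sizes were 0.15 and 0.22. The ranking chose genes for a large difference over these same libraries, so the higher share is a description. Fitted on libraries with Y-linked counts only, which leaves 2 libraries of each genotype, the difference was −1.43 for *Hsph1* (SE 0.334), −1.28 for *Bag3* (SE 0.427), 1.55 for *Kcng1* (SE 0.467) and 1.12 for *Slc9a8* (SE 0.311). In replicate 3 it was −0.20, −0.05, 0.34 and 0.07 for the same genes. *H2-Q6* differed less between the sets, at −0.68 and −0.50. That fit gave 305 unadjusted p values under 0.05 and 0 genes past the adjustment. Whether the genotype difference differs between the sets was not tested, nor was the part of sex or depth in it.

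Chaperones were listed as a group after the values of *Hsph1*, *Bag3* and *Dnaja1* had been seen, so the counts that follow are a description. They bind unfolded proteins, and heat shock factors induce many of them together. Of 27 tested, 25 were lower in −/− and 2, *Dnajb6* and *Hsf1*, were higher; the median was −0.27, and −0.42 to −0.15 over the alternatives, against −0.01 over all genes. *Hsph1*, *Bag3*, *Dnaja1*, *Hspa8* and *Stip1* had an unadjusted p under 0.05 (0.674% of all genes did so and were lower), and *Hsph1*, *Bag3* and *Hsp90ab1* were lower without overlap (3.3% of all genes were). *Dnaja1*, an Hsp40 partner of Hsp70, was at 389.2, 384.9 and 213.6 CPM in +/− and at 227.5, 234.7 and 198.8 CPM in −/− (−0.58, SE 0.208). *Bag3*, an Hsp70 cochaperone of selective autophagy, was at 44.8, 32.0 and 20.2 CPM in +/− and at 14.5, 16.9 and 19.4 CPM in −/− (−0.92, SE 0.339). For both genes +/− libraries 1 and 2 were high, and +/− library 3 lay near or inside the −/− range. *Hspa8*, the constitutive Hsp70, was at 5163.5, 5157.5 and 3939.2 CPM in +/− and at 3840.6, 3983.7 and 3453.1 CPM in −/− (−0.34, SE 0.155). The summed level of the list was 23107.1, 18368.9 and 15705.7 CPM in +/− and 15249.3, 15599.7 and 13748.5 CPM in −/−. +/− library 3 lay just above the −/− libraries. The +/+ sums, at 20651.8 and 20943.8 CPM, were above those of −/−, but +/+ library 1 lay within or near the −/− range for *Dnaja1* (195.8 CPM), *Hspa8* (3813.5 CPM) and *Bag3* (21.8 CPM). The inducible *Hspa1a*, a near copy of *Hspa1b* with which it shares reads, was low in replicate 3 of both genotypes, at 203.5, 96.9 and 38.4 CPM in +/− and at 161.3, 140.6 and 35.3 CPM in −/− (−0.01, SE 0.84). The median of the list was −0.31 in the libraries with Y-linked counts and −0.15 in the replicate 3 pair, and it was −0.08 in HPC-1 of Ang II-infused mice and 0.04 in LT-HSC of PBS-infused mice. The LT-HSC value turned on −/− library 2 of those cells, whose markers lie near HPC-1: without it 23 of the 27 were negative and the median was −0.17, against −0.04 over all genes.

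Promoters of the listed chaperone genes were read for the letters that heat shock factors are known to bind. The list holds heat shock genes, many of them induced by these factors, so a high share of matches says nothing of the genotypes. The search took GAANNTTC and TTCNNGAA, each of which is its own reverse complement so that both strands are covered, and let matches overlap. In windows from 250 bases before to 50 after the start of a gene (RefSeq, GRCm38.p6), 4946 of 32851 promoters held a match (15.1%), 2582 (7.86%) for GAANNTTC and 2799 (8.52%) for TTCNNGAA. Of the 30 promoters of listed genes, 15 held a match (50%), and of the 23 genes they belong to, 13 did (56.5%), among them *Hspb1* and *Hspb8*, which had too few counts to be tested. Some matches were counted more than once, as windows overlap. *Hspd1* and *Hspe1* share 3 matches, the windows of *Hsph1* share 3 and those of *Dnajb6* share 2. The share of all genes with a match was not computed. *Hspa8*, *Hspa9*, *Hsp90aa1*, *Hsp90ab1*, *Cryab*, *Hsf1* and *St13* had no window. *Stip1*, lower in −/−, held 0 matches, and *Dnajb6*, higher in −/−, held 2 in each of its windows. The windows below were chosen for their matches, for *Hsph1* (chr5:149636266-149636565, minus strand, 3 matches), *Bag3* (chr7:128523333-128523632, plus strand, 1 match) and *Dnaja1* (chr4:40722218-40722517, plus strand, 1 match), with matches in capitals; the other 2 windows of *Dnaja1* held 0. Counted in bases before the start of the gene, the *Bag3* match lay at −42 and the last *Hsph1* match at −20. Both thus began after the start, while the *Dnaja1* match lay 124 bases before it. A match describes these letters and shows no binding.
Hsph1: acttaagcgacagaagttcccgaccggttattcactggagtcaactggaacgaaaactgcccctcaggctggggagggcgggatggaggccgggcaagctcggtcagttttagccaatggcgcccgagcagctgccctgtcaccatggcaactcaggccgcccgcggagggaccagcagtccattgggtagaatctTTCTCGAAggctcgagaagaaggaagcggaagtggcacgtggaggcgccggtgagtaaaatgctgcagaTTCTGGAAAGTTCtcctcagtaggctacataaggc
Bag3: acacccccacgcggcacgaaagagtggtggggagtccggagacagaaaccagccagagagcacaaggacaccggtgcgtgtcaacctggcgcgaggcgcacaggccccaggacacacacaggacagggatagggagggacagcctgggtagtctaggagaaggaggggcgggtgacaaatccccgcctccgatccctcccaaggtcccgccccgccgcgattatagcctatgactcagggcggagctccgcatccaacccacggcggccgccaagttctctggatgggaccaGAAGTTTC
Dnaja1: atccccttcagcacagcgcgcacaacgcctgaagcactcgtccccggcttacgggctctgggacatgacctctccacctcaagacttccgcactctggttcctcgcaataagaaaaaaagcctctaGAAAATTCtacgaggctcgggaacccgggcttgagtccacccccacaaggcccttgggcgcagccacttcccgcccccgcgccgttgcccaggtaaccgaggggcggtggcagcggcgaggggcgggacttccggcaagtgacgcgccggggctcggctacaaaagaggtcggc

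Genes of MHC class I presentation were mostly lower in −/−, by small amounts. Of 16 tested, 13 were negative with a median of −0.12; *H2-Q6*, *H2-Q7*, *H2-Q4* and *H2-K1* did not overlap between the genotypes, and *H2-Q6* alone of the 16 had an unadjusted p under 0.05 (over all genes, 3.3% were lower without overlap and 0.674% lower at that p). *H2-Q6*, a nonclassical class I gene of the Qa region (chr17:35424850-35430055), was at 188.9, 242.8 and 147.8 CPM in +/− and at 122.9, 146.0 and 104.3 CPM in −/−. The +/+ libraries, at 97.7 and 113.3 CPM, lay with the −/− libraries. The difference was −0.63 (SE 0.22, 95% interval −1.11 to −0.16), and it was −0.62 in HPC-1 of Ang II-infused mice and −0.74 in LT-HSC of PBS-infused mice. *H2-K1*, a classical class I heavy chain and the most abundant member, was at 748.8, 793.9 and 854.1 CPM in +/− and at 607.0, 661.4 and 708.9 CPM in −/− (−0.28, SE 0.155). *B2m*, the shared light chain, differed by −0.15 (SE 0.185). H2 genes are near copies of each other and can share reads, so the level of each is uncertain, but the summed level of the list did not overlap either, at 3771.5, 4080.6 and 4215.1 CPM in +/− and 3341.9, 3603.0 and 3583.5 CPM in −/−, with +/+ at 3459.0 and 3691.1 CPM. In bulk libraries, fewer cells that express a gene and less RNA per cell cannot be told apart, here and for every gene in the text. Of 8 class II genes tested, 5 were positive (median 0.14).

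Interferon genes had medians closer to 0 than the class I genes. Of 17 interferon-gamma GTPases and regulators tested, 13 were negative (median −0.09). The most abundant, the GTPase *Tgtp2*, was at 98.2, 132.4 and 207.4 CPM in +/− and at 97.5, 108.6 and 117.7 CPM in −/−, so the difference of −0.44 rests mostly on +/− library 3. Of 32 type I interferon-stimulated genes, 14 were positive and 18 negative (median −0.03), and *Ifi203*, the most abundant, differed by −0.01 (SE 0.217). Of 22 tested genes of inflammatory receptors and NF-kB, 14 were negative (median −0.06); *Nfkbia*, the inhibitor that NF-kB induces, was at 27.3, 27.6 and 23.5 CPM in +/− and at 18.6, 12.5 and 17.8 CPM in −/− (−0.68, SE 0.351). The groups of *Nfkbia* did not overlap. The 6 tested genes of the renin-angiotensin system split evenly, with a median of 0.00.

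Genes of stem and progenitor identity had medians close to 0. Of 21 HSC markers tested, 9 were positive and 12 negative (median −0.11). *Hoxa9*, a homeobox gene of self-renewal, was at 41.7, 56.1 and 41.7 CPM in +/− and at 66.9, 72.7 and 58.7 CPM in −/− (0.51, SE 0.27), and *Gata2* was at 157.1, 171.0 and 182.5 CPM in +/− and at 111.1, 144.8 and 141.9 CPM in −/− (−0.36, SE 0.234). These factors, both needed by stem cells, lay on opposite sides, each without overlap. Of 15 multipotent progenitor markers 12 were positive (median 0.09), and of 18 lymphoid priming genes 12 (median 0.10). *Flt3*, the receptor that marks lymphoid-primed progenitors, was at 334.5, 385.2 and 296.6 CPM in +/− and at 600.8, 391.1 and 324.4 CPM in −/−. *Dntt*, the polymerase that adds bases at antigen receptor joints, was at 202.2, 215.8 and 171.5 CPM in +/− and at 469.6, 340.6 and 198.8 CPM in −/− (0.77, SE 0.544). −/− library 1 was the highest for both, and the groups overlap. Both genes were higher in −/− within each replicate number. Of 21 granulocyte and monocyte priming genes, 10 were positive (median −0.03, and −0.42 to 0.20 over the alternatives). *Mpo*, myeloperoxidase, was at 2401.8, 2394.3 and 4542.7 CPM in +/− and at 2142.1, 2350.3 and 4134.6 CPM in −/− (−0.11, SE 0.254); replicate 3 was high in both genotypes, and +/+ stood at 5256.9 and 5843.0 CPM. Medians were −0.08 for 28 lineage-choice transcription factors, 0.07 for 13 megakaryocyte genes, 0.19 for 9 genes of mast cells and eosinophils (0.11 to 0.65 over the alternatives), 0.05 for 20 growth factor receptors, 0.08 for 11 markers of the gate and −0.11 for 5 genes listed from Q-RT-PCR of progenitors, *Mpo* among them.

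Erythroid genes had a median of −0.38, and it turned on a single library. Their summed level was 272.5, 304.0 and 621.9 CPM in +/− and 328.4, 415.1 and 319.4 CPM in −/−. *Car1*, an erythroid carbonic anhydrase, was at 0.64, 0.94 and 78.9 CPM in +/− and at 8.05, 21.4 and 19.4 CPM in −/−. Without +/− library 3 the median was 1.23, in place of −0.38.

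Cell cycle genes had medians near 0, and the histone median was lower. Of 35 replication genes 16 were positive and 19 negative (median −0.02), and of 29 cyclins and their kinases 12 were positive (median −0.09). Of 39 mitotic genes, 30 were negative with a median of −0.08, and *Mki67*, the proliferation antigen, was at 2776.0, 3124.5 and 2033.1 CPM in +/− and at 2332.1, 3443.9 and 1794.9 CPM in −/− (−0.07, SE 0.35). *Plk1*, a mitotic kinase, was the mitotic gene furthest from 0, at 46.7, 62.4 and 53.1 CPM in +/− and at 37.5, 23.7 and 45.2 CPM in −/− (−0.60, SE 0.321). Its groups did not overlap, with −/− library 2 lowest. Of 23 replication-dependent histones, which are near copies of each other, 21 were negative (median −0.24), and their sums overlap, at 5965.4, 5312.1 and 7674.5 CPM in +/− and 4055.1, 4772.0 and 7208.8 CPM in −/−. The −/− sum was lower within each replicate number, which is a description, as the labels do not say what a number shares. The histone median was −0.57 without −/− library 3 and 0.05 without +/− library 3. CDK inhibitors (6 genes, median 0.03), *Trp53* and its targets (25 genes, −0.05), *Myc* and Max network genes (21 genes, −0.13), immediate early genes (19 genes, 0.12, and −0.45 to 0.31 over the alternatives) and abundant noncoding RNAs (14 genes, −0.15, and −0.52 to 0.03) had no member at an unadjusted p under 0.05.

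Metabolic and structural lists had medians close to the −0.01 of all genes. Of 32 genes of cholesterol synthesis and sterol transport 21 were positive (median 0.12). *Hmgcs1*, which encodes a synthase of the mevalonate pathway, was at 30.5, 41.1 and 36.6 CPM in +/− and at 44.9, 61.7 and 44.9 CPM in −/− (0.48, SE 0.24). Its groups did not overlap. *Pdk1*, which closes the entry of pyruvate into mitochondria, was at 47.7, 65.2 and 86.0 CPM in +/− and at 95.3, 79.5 and 108.3 CPM in −/− (0.51, SE 0.21), and was the single gene among 22 of glycolysis at an unadjusted p under 0.05. Medians were 0.03 for glycolysis, 0.00 for 32 nuclear-encoded genes of oxidative phosphorylation, 0.05 for 33 ribosomal proteins, 0.00 for 21 adhesion and homing receptors and −0.03 for 22 chromatin regulators of clonal hematopoiesis. Over the 654 distinct list genes tested, chaperones aside, 2 were higher and 1 lower at an unadjusted p under 0.05 (0.47% and 0.674% of all genes), 10 higher and 25 lower without overlap (3.53% and 3.3% of all genes), and the median was −0.03.

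**Figure D3:**
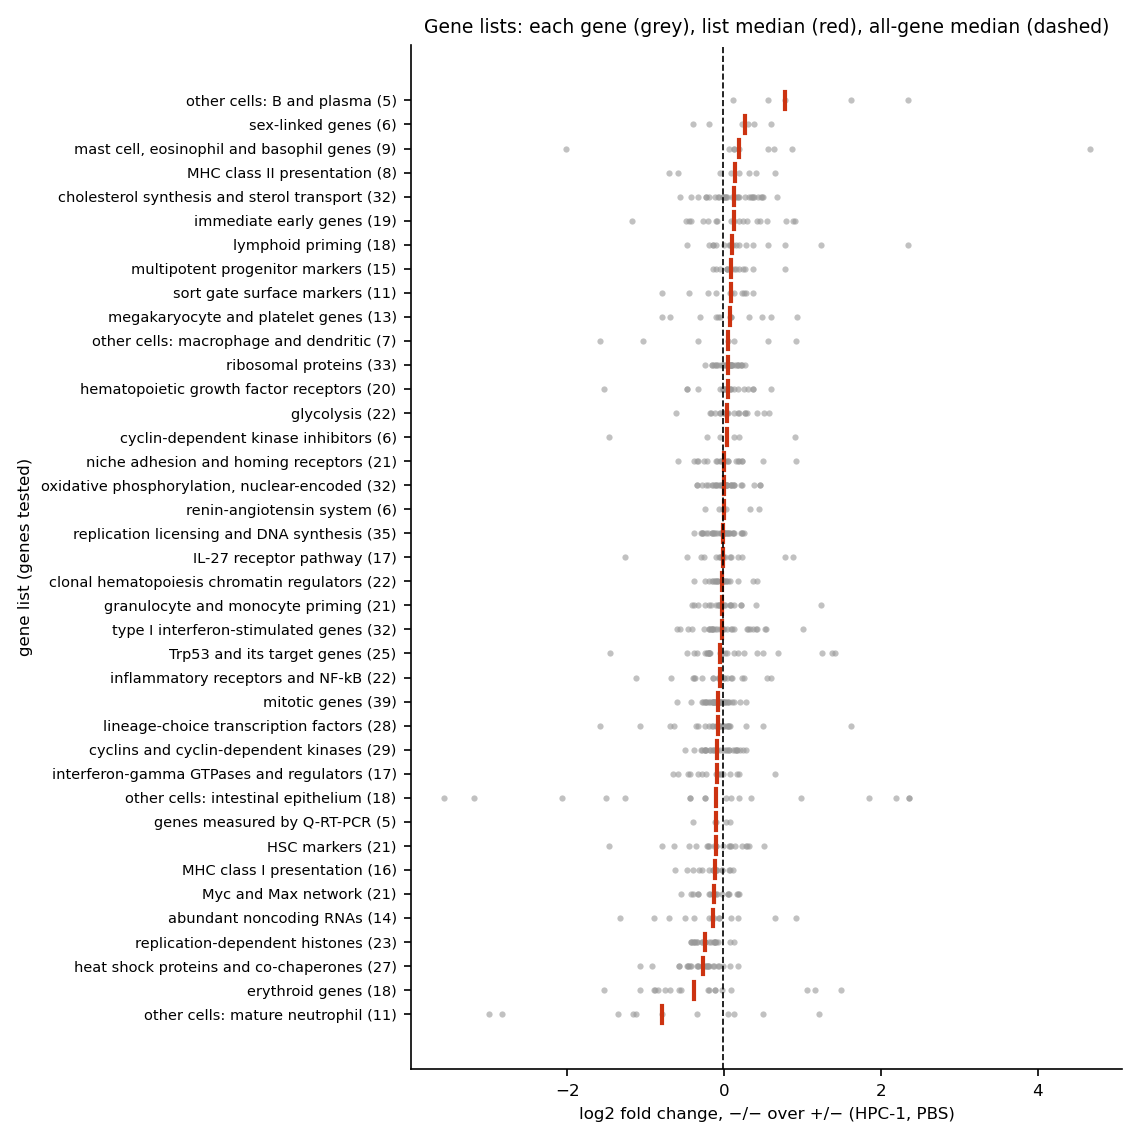
Log2 difference, −/− over +/−, of each gene (grey) and the median (red) of every list with 5 or more genes tested; the dashed line is the median of all genes, −0.01. The chaperones, listed after their values were seen, center at −0.27, and the erythroid median of −0.38 turns to 1.23 without +/− library 3.

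Markers of other cells were summed in each library. Neutrophil markers summed to 66.5, 63.0 and 58.5 CPM in +/− and 56.3, 68.2 and 58.5 CPM in −/−, mostly from *Padi4*, and *Ly6g* and *Retnlg* were at 0 counts in the 6 libraries; the median of 11 tested, −0.79, comes from genes with few counts and ran from −2.25 to −0.06 over the alternatives. Macrophage markers summed to 57.5, 60.2 and 114.9 CPM in +/− and 56.0, 39.5 and 107.9 CPM in −/−, mostly from *Csf1r*, so they followed replicate 3 (7 tested, median 0.05). B and plasma cell markers summed to 115.4, 149.9 and 98.7 CPM in +/− and 191.3, 199.4 and 139.2 CPM in −/−, which overlap. Within each replicate number the −/− sum was higher, which is a description, as the labels do not say what a number shares. The 5 tested were positive (median 0.78), each with an unadjusted p over 0.05 and with overlap; *Ighm*, the most abundant, was at 99.5, 122.6 and 77.9 CPM in +/− and at 163.8, 169.7 and 108.3 CPM in −/− (0.56, SE 0.328), while *Cd79a* was at 0 counts in the 6 libraries. *Ighm* is also transcribed early in lymphoid-primed progenitors. T and NK markers (2 tested, median 0.70, mostly *Nkg7*), endothelial and stromal markers (3 tested, 0.05, mostly *Pecam1*), intestinal markers (18 tested, −0.11, mostly *Muc13*) and keratinocyte markers (2 tested, −0.23, *Sfn*) had no member at an unadjusted p under 0.05. Endothelial and stromal markers summed to 157.1, 168.4 and 166.8 CPM in +/− and 193.8, 160.5 and 162.6 CPM in −/−, and intestinal markers to 519.5, 631.4 and 459.8 CPM in +/− and 449.8, 488.1 and 448.8 CPM in −/−. *Muc13*, a membrane mucin, was lower in −/− without overlap, at 460.4, 518.8 and 403.6 CPM in +/− and 390.0, 385.7 and 392.2 CPM in −/− (−0.24, SE 0.172), and differed by −0.35 under Ang II. *Trac* was at 0 counts in the 6 libraries. The part of other cells in any difference was not tested.

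Whether the genotype difference itself depended on the agent was tested within the 19 HPC-1 libraries. By edgeR 0 of 13199 genes passed (0%), with 169 at an unadjusted p under 0.05 (1.28%); DESeq2 and limma-voom also passed 0. In HPC-1 of Ang II-infused mice, −/− against +/− passed 0 genes by edgeR (0%), with 375 genes at an unadjusted p under 0.05 (2.84%). *Dnaja1* differed by −0.58 under PBS and 0.17 under Ang II, and *Hsph1* by −1.07 and −0.35. These genes were picked on their PBS difference, which enters the interaction, so no interaction p is given for them. *Abcb6* was −1.25 under PBS and 0.41 under Ang II, and *Tgif1* 0.66 and −0.27. Of the 24 ranked genes, 16 lay on the same side under Ang II, and *H2-Q6* alone of the 16 had an unadjusted p under 0.05 there. No share of all genes on the same side stands beside this count, so it is a description.

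Against LT-HSC of PBS-infused mice, the difference of genotype differences passed 0 of 18013 genes by edgeR (0%), with 633 at an unadjusted p under 0.05 (3.51%), 0 by limma-voom and 2 by DESeq2, *Mpo* and *Pram1*. In LT-HSC alone, −/− against +/− passed 0 genes by edgeR (0%), with 889 at an unadjusted p under 0.05 (4.94%). Library 2 of the −/− LT-HSC lies near HPC-1, with *Cd48* at 62.6 CPM and *Slamf1* at 2.36 CPM. Libraries 1 and 3 have *Cd48* at 0.00 and 4.16 CPM and *Slamf1* at 45.8 and 44.0 CPM. Library 3 lay above the +/− LT-HSC in *Cd48* (0.49 to 1.21 CPM) and in *Flt3*, at 80.4 against 20.3 to 32.7 CPM. For *Mpo*, libraries 1 and 3 stood at 12.9 and 103.7 CPM, against 0.49 to 4.84 CPM in +/−. Without library 2 of the −/− LT-HSC, edgeR and DESeq2 each passed 0 genes in the test between cell types. The DESeq2 value of *Pram1* was −16.67 on the log2 scale without that library (DESeq2 adjusted p = 0.247). With that library it was −19.17 (DESeq2 adjusted p = 0.000614), and neither size is read as a fold change. The DESeq2 value of *Mpo* was −4.32 without that library and −8.63 with it. In LT-HSC alone edgeR passed 0 without that library, and the 889 became 283. Of the 24 ranked genes, 17 lay on the same side in LT-HSC, 3 of them at an unadjusted p under 0.05: *Kcng1* (3.25), *Cited2* (−0.50) and *H2-Q6* (−0.74). Without that library the values were −1.75 for *Kcng1*, −0.29 for *Cited2* and −0.63 for *H2-Q6*, and 15 of the 24 lay on the same side, with *H2-Q6* and *Hsph1* (−1.07; −0.68 with that library) at an unadjusted p under 0.05. *Slc9a8*, 0.72 in HPC-1, was −0.17 in LT-HSC and −0.04 without that library. The counts of 17 and 15 of the 24 likewise have no share of all genes beside them and are a description.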

How the data were processed

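RNA of 5000 sorted cells per library was made into stranded total RNA libraries. The authors deposited expected counts per Ensembl gene, estimated with RSEM from paired-end reads aligned to mm10, in whole numbers and not normalized; the labels name RSEM 1.2.31. The table held 38887 genes and 36 libraries. Values were checked to be whole and would otherwise have been rounded to whole numbers. Symbols and positions came from GENCODE M21 for 37570 genes, which hold 99.63% of counts; 852 of 872 list genes matched, and none of the 13 genes of mitochondrial DNA did, so their share was not computed. Members and the 42 gene lists were chosen with earlier results of these data known, and the chaperone list after its values were seen.

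The 19 HPC-1 libraries were fitted in 6 groups of agent and genotype with edgeR 4.0.16 (R 4.3.3): TMM normalization, filterByExpr, robust quasi-likelihood F test and Benjamini-Hochberg adjustment over all genes tested, with a threshold of 0.05. Standard errors are |log2 fold change|/sqrt(F), and 95% intervals use 13 residual degrees of freedom. The interaction with cell type used all 36 libraries in 12 groups. Alternatives were DESeq2 1.42.0, limma 3.58.1 (voom with sample weights), other scalings, filters and sets of libraries, a Y-linked covariate, and replicate number as a block. CPM are TMM-normalized over the HPC-1 libraries, or over all 36 libraries where LT-HSC stand beside them. Python 3.11.15 and scipy 1.17.1 gave the exact permutation tests.

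Named genes were *Il27ra*, *Apoe* and the IL-27 pathway; 12 genes per direction with the smallest unadjusted p among those whose libraries did not overlap, with a mean of 5 CPM or more and a symbol that is not a clone name; from each list up to 4 genes at an unadjusted p under 0.05 and the most abundant; and the sex-linked genes. Other genes in the text were chosen after their values were seen. Deviations from the group means of libraries with the same replicate number correlated at 0.128, 0.138 and 0.486 across genes, and of libraries with different numbers at −0.25 to 0.104. Every same-number value is over 0.1, but so is the 0.104 of −/− library 2 with +/− library 1. The highest value, 0.486, belongs to replicate 3, whose libraries stand apart in depth and *Xist*. These correlations therefore do not establish pairs, and the labels do not say what a number shares. The main fit was unpaired, and replicate number entered as a block only among the alternatives.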

Additional observations from a re-analysis of the deposited data

Results flagged for a closer look

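In HPC-1 of Ang II-infused +/− mice, library 4 held 6318379 counts, far above the 2618919, 2349391 and 2272026 of the other 3. It alone of the 4 held high *Xist* (22122 counts) and 0 Y-linked counts, so its depth goes with sex, as in the +/− and −/− libraries of PBS-infused mice. In HPC-1 of Ang II-infused −/− mice, the 100 most abundant genes took 19.9% of the counts of library 2, against 22.8%, 22.8% and 22.5% in the other 3. Each lay further from its group than Dixon's 95% limit for 4 values allows. Such values were looked for in 58 groups of 4, and chance alone gives about 1 in 20. Groups of 3, the 6 libraries compared included, were not examined in this way.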

How the results depend on the processing

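Over 19 alternatives per gene, 1991 of 1992 values of the 105 named genes kept their direction and their side of the threshold, or had an unadjusted p of 0.05 or more on both sides where the sign differed; 0 reversed. As adjusted p is 1 for each of them in edgeR, this says little of their stability: unadjusted p went over 0.05 under an alternative for 21 of the 24 ranked genes, all but *Kcng1*, *Cited2* and *Banp*. *Hsph1* was the value on the other side and passed without a filter on low counts (adjusted p = 0.00725; −1.43 to −0.83 on the log2 scale and adjusted p 0.00725 to 1 over its alternatives). The *Il27ra* difference ranged from −0.69 to −0.27 when each library was left out.

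Genes passing between the genotypes, 0 in edgeR, numbered 1 without a filter (*Hsph1*), 1 with the Y-linked covariate in DESeq2 (*Ighv1-55*) and 0 with each library left out. Genes at an unadjusted p under 0.05, 151 in edgeR, numbered 346 by limma-voom, 452 without a filter, 281 with the Y-linked covariate in DESeq2, 305 in the libraries with Y-linked counts (chosen after seeing the data, as was leaving out −/− LT-HSC library 2), and 75 to 376 with each library left out; it was 75 without −/− library 2, 99 without +/− library 1, 337 without −/− library 3 and 376 without +/− library 3. For the interaction with agent, 0 became 2 without a filter, and was 0 with each of the 6 compared libraries left out. The Ang II libraries were not left out singly. For the interaction with cell type, 0 became 2 by DESeq2, 99 without a filter and 6 with the Y-linked covariate in DESeq2. It was 0 with each of the 6 compared libraries left out. Without −/− LT-HSC library 2 DESeq2 passed 0, with *Pram1* at −16.67 (DESeq2 adjusted p = 0.247, and −19.17 with it) and *Mpo* at −4.32 (−8.63 with it). The other LT-HSC libraries were not left out singly. The cause was not tested.

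The 2 groups alone gave 0 genes passing and 223 at an unadjusted p under 0.05; with the replicate block they gave 1 and 493, and the 6 groups gave 0 and 156; the block changed no other call. The interactions could not be fitted on the 2 groups alone.

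Of 798 values of 42 list medians, 5 moved by more than the median standard error of the list's own genes: the erythroid median (1.23 without +/− library 3, 1.15 in libraries with Y-linked counts), the histone median (−0.57 without −/− library 3) and the median of 2 keratinocyte genes (2.32 and 2.23). Depth, 3103196 to 4922800 counts, limits genes near 1 CPM, where 3 counts lie.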

Other observations

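A pair of genes near *Il27ra* on chromosome 8 were chosen here after their values were seen. Of 99 genes tested within 5 Mb of *Il27ra*, 1 was higher and 3 were lower in −/− at an unadjusted p under 0.05, with a median of −0.13; over all genes 0.47% were higher and 0.674% lower, with a median of −0.01. *Tbc1d9*, which encodes a protein with a Rab GTPase-activating domain (chr8:83165352-83272934), was at 4.45, 4.08 and 3.13 CPM in the +/− libraries and at 0.62, 0.00 and 0.21 CPM in the −/− libraries. The −/− libraries lay at or under the limit of detection, and the +/+ libraries stood at 5.64 and 4.44 CPM. The difference was −3.68 on the log2 scale (SE 1.29, edgeR adjusted p = 1). Under Ang II it was −2.97 (SE 1.05, edgeR adjusted p = 1), from 1.30, 8.75, 1.27 and 3.97 CPM in +/− and 0.55, 0.00, 0.00 and 1.12 CPM in −/−. LT-HSC after PBS held 27.2, 8.56 and 16.4 CPM in +/− and 9.42, 0.00 and 4.30 CPM in −/−. These groups overlap, and the 0.00 CPM belongs to −/− library 2, which lies near HPC-1. *G430095P16Rik* (chr8:84723007-84726844) was at 5.41, 5.33 and 9.59 CPM in +/− and at 18.0, 34.7 and 10.5 CPM in −/−. Its groups did not overlap in HPC-1 of PBS-infused mice, and its difference was 1.61 on the log2 scale (SE 0.513, edgeR adjusted p = 1). Under Ang II its groups overlap and the difference was −0.14, and +/+ library 2, at 4.44 CPM, lay with the +/− libraries of PBS-infused mice while +/+ library 1 lay above them. These values passed no adjustment.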
